A study of Mus musculus with 8 samples.

Results

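ABC transporters and organic ion carriers move bile constituents, drugs, hormones and lipids across the membranes of liver cells. The genes described here were the rows whose symbol belongs to the ATP-binding cassette families Abca to Abcg, the organic anion carriers Slco or the organic ion carriers Slc22a, with the exception of *Abcb11*. They made up 90 of the 23282 rows, with 49 ABC genes, 15 Slco genes and 26 Slc22a genes. Liver RNA of C57BL/6 mice was sequenced from the 3′ ends of transcripts, and the value of a gene is the number of reads counted on its row. The mice were 4 weeks old. The control group received saline, the endotoxemic group received 25 mg/kg of lipopolysaccharide (LPS), a component of the bacterial outer membrane, and the LGK974 group received 60 mg/kg of LGK974, an inhibitor of the acyltransferase porcupine that Wnt proteins need for secretion, together with 25 mg/kg of LPS. The doses of the LGK974 group come from the study's text, as its labels name neither of them. Livers were collected 6 h after LPS, and LGK974 was given 2 h before LPS in most of the experiments of the study. No allele or transgene is named for any group, and nothing in the labels says that the libraries came from separate animals, so the p-values measure only the spread between these libraries.

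Of the 8 libraries, 4 were endotoxemic, and the control and LGK974 groups had 2 each. Endotoxemic libraries 3 and 4 repeated libraries 1 and 2 on every row and were counted once, so that each group had 2 distinct libraries (n = 2). Total counts ranged from 9142116 to 15222439 per library, and a signal of 3 counts corresponded to between 0.197 and 0.328 when scaled by the library total to CPM. This floor accounts for counting error alone. The CPM of genes given here are further scaled by TMM factors of 0.976 to 1.02. The rows follow the genes along the chromosomes, but 579 of the 23134 rows with a RefSeq position bore symbols whose genes lie over 2 Mb from those of the neighbouring rows. All 90 transporter and carrier rows stood in genomic order. Only *Abcd3*, beside the row of *Bdkrb1*, and *Slc22a12*, beside the row of *Klk1b1*, had an out-of-order row next to them. The labels describe all mice as male. *Xist*, the RNA of the inactive X chromosome, was counted 1444 and 3115 times in control, 1171 and 1884 times in endotoxemic, and 3 and 7 times in LGK974 libraries. *Ddx3y*, on the Y chromosome, was at 0 in each control and endotoxemic library and reached 1755 and 1392 counts in those of LGK974. The control and endotoxemic libraries therefore go against the label, and the effect of LGK974 and that of the sex-linked difference cannot be told apart in any comparison with the LGK974 group. Control and endotoxemic libraries were alike in this respect, with a log2 difference for *Xist* of −0.04 ± 0.29 (SE).

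Hepatocytes take up bile acids, bilirubin, steroid conjugates and drugs from sinusoidal blood through carriers of the Slco and Slc22a families. ABC transporters of the canalicular membrane then use ATP to pump conjugates, phospholipids and sterols into bile, while others return solutes or pass cholesterol to the blood across the basolateral membrane. A loss of hepatic transporter transcripts in the acute phase of endotoxemia is a known feature of the cholestasis of sepsis. Other members of the superfamily work inside the cell, carrying fatty acids into peroxisomes and metal or peptide cargo across mitochondrial and lysosomal membranes, and a few have no membrane part and act on ribosomes.

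The promoter windows of 72 of the 90 genes were found in RefSeq (build GRCm38.p6), each from 250 bases before to 50 bases after a start site, which gave 84 windows. Sequences are printed 5′ to 3′ on the strand of the gene, and capitals mark matches to 4 searched motifs on either strand. These were GTTAAT for HNF1, then AGGTCA for nuclear receptors, then TTCNNNGAA for STAT factors, then TATAAA for the TATA box. *Slco1b2* is shown because it is the main organic anion carrier of hepatocytes and was lower with LPS, at chr6:141629268-141629567 on the plus strand:
Slco1b2: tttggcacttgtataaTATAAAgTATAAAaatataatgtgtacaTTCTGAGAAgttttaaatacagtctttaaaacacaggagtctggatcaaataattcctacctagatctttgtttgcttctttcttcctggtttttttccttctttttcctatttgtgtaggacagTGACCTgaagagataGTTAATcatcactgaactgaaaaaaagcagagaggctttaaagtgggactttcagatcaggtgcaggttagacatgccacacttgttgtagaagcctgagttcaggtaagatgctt
It was the window with the GTTAAT match 66 bases before the start, the AGGTCA match on the opposite strand 81 bases before it, the TTCNNNGAA match 206 bases before it, and the TATAAA matches 227 and 234 bases before it. *Abcg5* and *Abcg8* are transcribed away from each other from start sites 110 bases apart, and their windows share 209 bases. The window of *Abcg8* is shown because both genes fell together, at chr17:84682871-84683170 on the plus strand, with a TATAAA match on the opposite strand 31 bases before the start:
Abcg8: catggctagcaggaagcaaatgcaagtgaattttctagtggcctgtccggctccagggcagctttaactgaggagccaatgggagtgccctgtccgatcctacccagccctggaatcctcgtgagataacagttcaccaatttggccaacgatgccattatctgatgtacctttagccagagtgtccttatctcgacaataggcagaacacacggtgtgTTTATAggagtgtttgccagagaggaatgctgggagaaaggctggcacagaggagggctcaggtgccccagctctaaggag
Genes of the Slc22a cluster on chromosome 19 are shown because *Slc22a26* and *Slc22a27* differed between the LGK974 and endotoxemic groups, while their neighbours *Slc22a28* and *Slc22a30* were not called. All lie on the minus strand, *Slc22a26* at chr19:7802618-7802917, *Slc22a27* at chr19:7965978-7966277, *Slc22a28* at chr19:8131933-8132232 and *Slc22a30* at chr19:8405056-8405355:
Slc22a26: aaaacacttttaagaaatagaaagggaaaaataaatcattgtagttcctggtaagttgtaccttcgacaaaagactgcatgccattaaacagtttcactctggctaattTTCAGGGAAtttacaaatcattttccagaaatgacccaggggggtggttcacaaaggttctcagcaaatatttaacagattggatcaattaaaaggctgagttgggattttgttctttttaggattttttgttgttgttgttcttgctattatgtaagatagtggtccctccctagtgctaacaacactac
Slc22a27: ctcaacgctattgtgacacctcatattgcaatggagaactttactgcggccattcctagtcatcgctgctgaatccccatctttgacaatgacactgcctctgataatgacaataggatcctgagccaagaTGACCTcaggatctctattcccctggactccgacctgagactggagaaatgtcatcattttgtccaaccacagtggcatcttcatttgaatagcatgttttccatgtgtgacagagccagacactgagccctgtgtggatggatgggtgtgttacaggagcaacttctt
Slc22a28: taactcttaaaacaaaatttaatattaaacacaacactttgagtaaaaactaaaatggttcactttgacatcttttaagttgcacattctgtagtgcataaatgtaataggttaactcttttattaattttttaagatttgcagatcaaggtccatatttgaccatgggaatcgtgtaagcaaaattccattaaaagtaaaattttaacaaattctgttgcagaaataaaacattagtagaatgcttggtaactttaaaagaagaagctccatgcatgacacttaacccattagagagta
Slc22a30: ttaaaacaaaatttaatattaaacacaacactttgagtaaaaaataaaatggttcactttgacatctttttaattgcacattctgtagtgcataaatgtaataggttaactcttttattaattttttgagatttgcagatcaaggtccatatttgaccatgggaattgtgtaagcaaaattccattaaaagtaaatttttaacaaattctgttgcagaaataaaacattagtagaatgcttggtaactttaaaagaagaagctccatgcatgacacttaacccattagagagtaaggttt
*Slc22a28* and *Slc22a30* were identical at 98% of 294 aligned bases, and *Slc22a26* and *Slc22a27* at 69.4% of 252 aligned bases. Over all 32851 windows of 300 bases in RefSeq, GTTAAT was present in 7.1%, AGGTCA in 16.3%, TTCNNNGAA in 8.3% and TATAAA in 13.6%. In the 84 windows of the transporters and carriers these shares were 4.76%, 13.1%, 11.9% and 17.9%, respectively. A match is a description of the letters and not evidence of binding.

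A large part of the transporter and carrier transcripts was lower after LPS. The filter on low counts kept 59 of the 90 genes, and of these 30 were lower and 5 were higher in endotoxemic than in control livers at an adjusted p below 0.05. These are 50.8% and 8.47% of the genes tested, while over all 12701 rows tested 23% were lower and 20.4% were higher. The median log2 fold change was −1.81 over the 59 genes and 0.01 over all rows tested. The libraries of both groups did not overlap for 51 of the 59 genes and for 77.1% of all rows tested. In total, 36 of the 59 genes (61%) were called in at least 1 of the 3 comparisons, against 49.5% of all rows tested. When each processing choice or library was varied in turn, 24 of the 30 lower calls and 2 of the 5 higher calls were made in every alternative that tested the gene. The count of higher genes was 2 without endotoxemic library 2, 2 without control library 1 and 3 without control library 2. As the tissue was whole liver, fewer cells of a type and less RNA per cell cannot be told apart. The summed CPM of 6 hepatocyte markers on rows in order was 110000 and 77900 in control and 46700 and 30100 in endotoxemic libraries. All 6 were lower, beside 23% of all rows tested. The other 2 markers of the list, *Serpina1a* (lower) and *Ass1* (higher), stand on out-of-order rows. No hepatocyte marker was at 0 throughout a group. The part of a change in cell composition in the fall of the transporters was not tested.

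**Figure D1:**
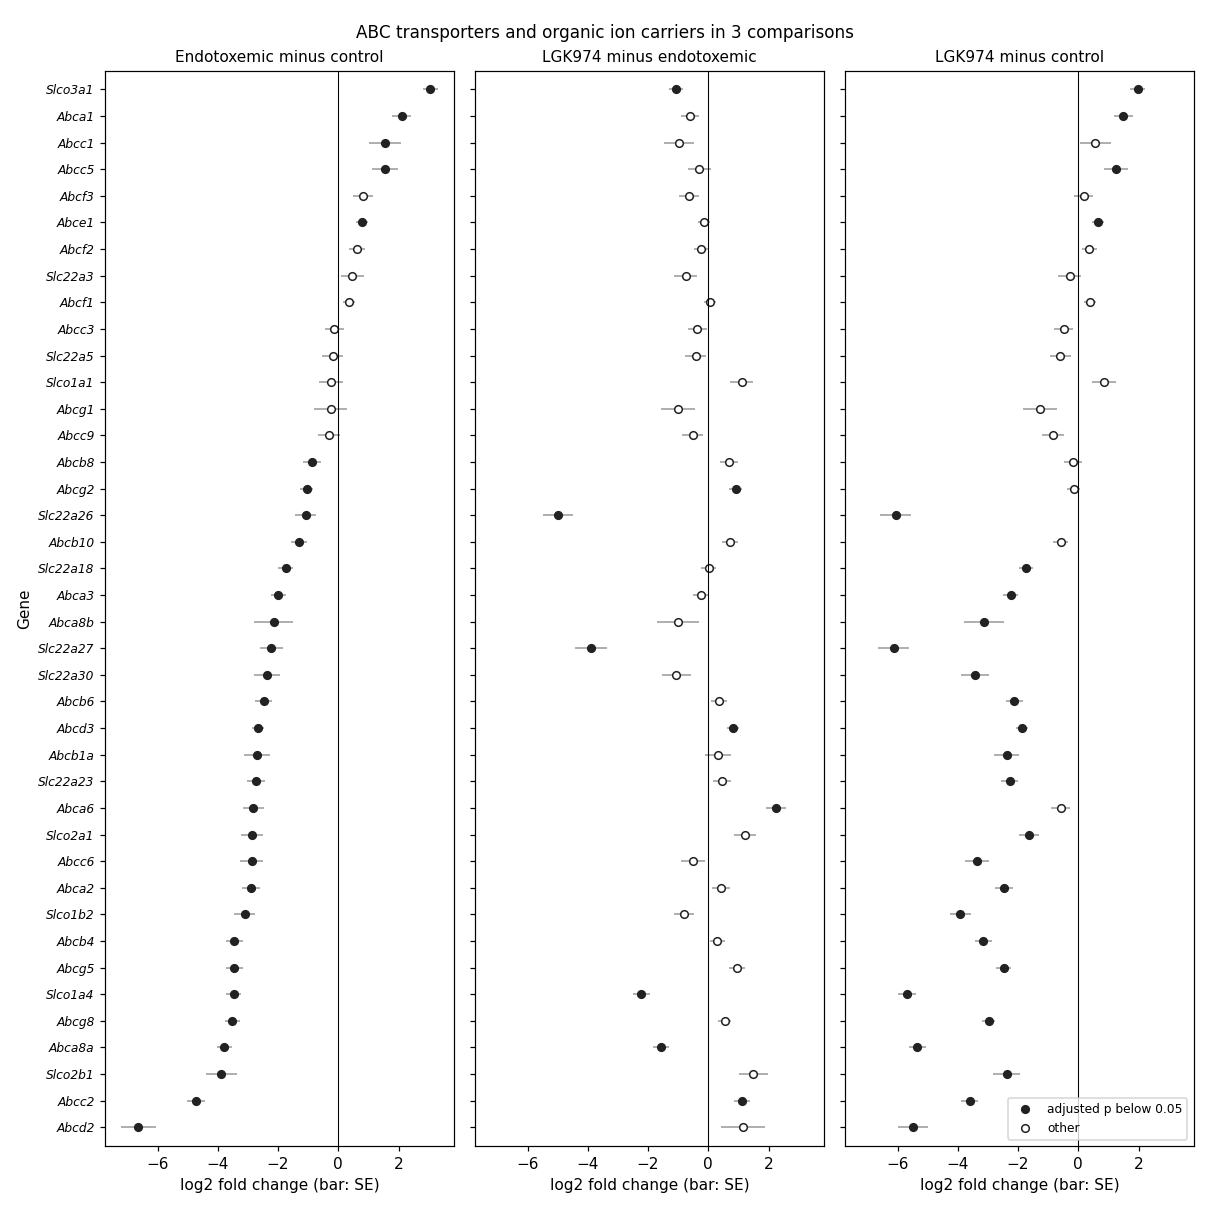
Log2 fold changes of the genes with a mean of at least 5 CPM in a group or with a call, in each of the 3 comparisons, without *Abca9*, *Slc22a29* and *Slc22a4*, which had 3 counts or fewer in a group, and without 3 genes that are not shown. Points are edgeR estimates, bars their SE, and filled points have an adjusted p below 0.05. Most points of the left and right panels lie below 0, from 3.05 for *Slco3a1* to −6.64 for *Abcd2* in the left panel, whereas most points of the middle panel lie close to 0 and *Slc22a26* and *Slc22a27* stand at −4.99 and −3.90.

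Of 13 tested uptake carriers of the sinusoidal membrane, 7 were lower with LPS (53.8%, beside 23% of all rows tested) and the other 6 were not called, with a median log2 fold change of −1.81. *Slco1b2* (chromosome 6, 141629452 to 141686646, GRCm38), the main hepatocyte carrier of bilirubin, bile acids and statins, had 2710 and 2700 CPM in control, 322 and 304 CPM in endotoxemic, and 112 and 244 CPM in LGK974 libraries. It was 8.63-fold lower in the endotoxemic group, a log2 fold change of −3.11 ± 0.34 (SE) with an adjusted p of 0.000113. *Slco1a4* (chromosome 6, 141805438 to 141856284), which carries bile acids and cardiac glycosides, stood at 88.7 and 112 CPM in control, at 8.62 and 9.49 CPM in endotoxemic, and at 2.34 and 1.56 CPM in LGK974 libraries. The 3 groups did not overlap and descended in that order. *Slco1a1*, on the same chromosome from 141907281 to 141946962, carries similar organic anions and had 49.7 and 48.5 CPM in control and 37.4 and 45 CPM in endotoxemic libraries. Its log2 difference of −0.25 ± 0.39 was not past the threshold (adjusted p = 0.63). In the LGK974 libraries it had 130 and 47.5 CPM, so that library 1 lay above every other library and library 2 just below the control libraries. These paralogs are close in sequence and the counting could split reads between them.

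*Slco2b1*, a carrier of steroid sulfates, had 122 and 144 CPM in control, 8.4 and 9.59 CPM in endotoxemic, and 11.6 and 39.2 CPM in LGK974 libraries. *Slco2a1*, the prostaglandin carrier, had 41.7 and 24.3 CPM in control, 5.67 and 3.41 CPM in endotoxemic, and 10.7 and 10.4 CPM in LGK974 libraries. Both were lower in the endotoxemic group, with log2 fold changes of −3.88 ± 0.50 and −2.86 ± 0.36. Their LGK974 libraries lay above the endotoxemic ones, by 1.50 ± 0.47 and 1.21 ± 0.36 on the log2 scale, without passing the threshold (adjusted p = 0.0984 and 0.0839). *Slc22a18*, an orphan carrier of the imprinted region of chromosome 7, had 64.2 and 78.4 CPM in control, 20.2 and 22.2 CPM in endotoxemic, and 25.2 and 17.4 CPM in LGK974 libraries. *Slc22a23*, another orphan, had 43.5 and 51.3 CPM, 6.11 and 8.1 CPM, and 7.47 and 12 CPM. These orphan carriers were 3.37-fold and 6.67-fold lower in the endotoxemic than in the control group, and their libraries did not overlap. *Slc22a5*, the carnitine carrier, and *Slc22a3*, an organic cation carrier, gave log2 differences of −0.18 ± 0.35 and 0.46 ± 0.38, neither past the threshold. *Slc22a7*, *Slc22a15* and *Slco1a5* were tested at low counts and were not called in any comparison.

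**Figure D2:**
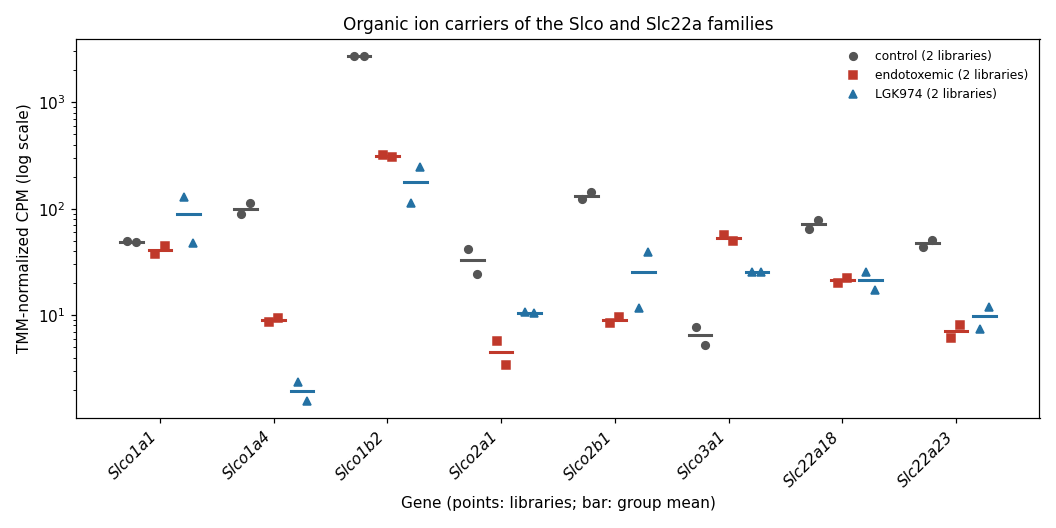
TMM-normalized CPM (log scale) of 8 Slco and Slc22a genes in each library of the control, endotoxemic and LGK974 groups; points are libraries and bars group means. *Slco3a1* rises from 7.7 and 5.29 CPM in control to 57 and 49.9 CPM in endotoxemic libraries, *Slco1a1* stays between 37.4 and 49.7 CPM in these groups, and the other 6 genes fall.

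*Slco3a1* (chromosome 7, 74275418 to 74554780) was the member with the largest rise in the endotoxemic group. It encodes an organic anion carrier found in many tissues, with prostaglandins and thyroid hormone among its substrates. It had 7.7 and 5.29 CPM in control, 57 and 49.9 CPM in endotoxemic, and 25.2 and 25.7 CPM in LGK974 libraries. The LGK974 libraries lay between those of the other groups without overlap. The rise with LPS was 8.27-fold, or 3.05 ± 0.25 on the log2 scale, with an adjusted p of 2.42e-05. The LGK974 group was lower than the endotoxemic group by −1.07 ± 0.23 (adjusted p = 0.0314), and this call was lost without endotoxemic library 1 (adjusted p = 0.215), endotoxemic library 2 (0.177), control library 1 (0.0584) or control library 2 (0.0575).

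Exporters of the canalicular membrane had the lowest median of the roles examined in the endotoxemic group. Of 7 tested genes 6 were lower (85.7%, beside 23% of all rows), and the median log2 fold change was −3.45. *Abcc2* (chromosome 19, 43782308 to 43838332), the pump for bilirubin glucuronides and glutathione conjugates, had 272 and 286 CPM in control, 9.6 and 11.5 CPM in endotoxemic, and 17 and 28.6 CPM in LGK974 libraries. The fall with LPS was 26.4-fold, or −4.72 ± 0.30 on the log2 scale, with an adjusted p of 5.21e-06. The LGK974 libraries lay above both endotoxemic libraries and far below the control libraries. *Abcb4* (chromosome 5, 8893614 to 8959226), the phosphatidylcholine floppase of bile, had 408 and 303 CPM in control, 37.5 and 27.3 CPM in endotoxemic, and 34.1 and 45.7 CPM in LGK974 libraries. It was 11-fold lower in the endotoxemic group and overlapped between the groups that received LPS.

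*Abcg5* and *Abcg8* encode the subunits of the sterol exporter, and their promoter windows overlap as shown above. *Abcg5* had 63.2 and 48.8 CPM in control, 5.89 and 4.37 CPM in endotoxemic, and 9.28 and 10.7 CPM in LGK974 libraries. *Abcg8* had 70.2 and 63.9 CPM, 6.44 and 5.22 CPM, and 8.61 and 8.39 CPM in the same groups. Their log2 fold changes with LPS were −3.45 ± 0.27 and −3.52 ± 0.24. Another annotated start of *Abcg8*, at 84676302, lies inside *Abcg5*, so that by annotation the genes overlap up to 84683011 and unstranded counting could share reads between them. *Abcg2*, an exporter of urate and drugs, changed less, with 31.2 and 26.6 CPM in control, 13.4 and 14.4 CPM in endotoxemic, and 24.2 and 27.9 CPM in LGK974 libraries. It was lower by −1.05 ± 0.22 with LPS (adjusted p = 0.00484), a call lost without endotoxemic library 1 (0.057) or control library 1 (0.0518). Its LGK974 libraries were within reach of the control libraries, with a log2 difference of −0.15 ± 0.22 (adjusted p = 0.637). The multidrug exporter *Abcb1a* had 16.4 and 14.8 CPM in control, 3.06 and 1.71 CPM in endotoxemic, and 3.93 and 2.1 CPM in LGK974 libraries. Its neighbour *Abcb1b* had between 1.67 and 3.85 CPM in all libraries, and was the canalicular gene that was not called. *Abcb1a* and *Abcb1b* are paralogs, and the counting could split reads between them.

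**Figure D3:**
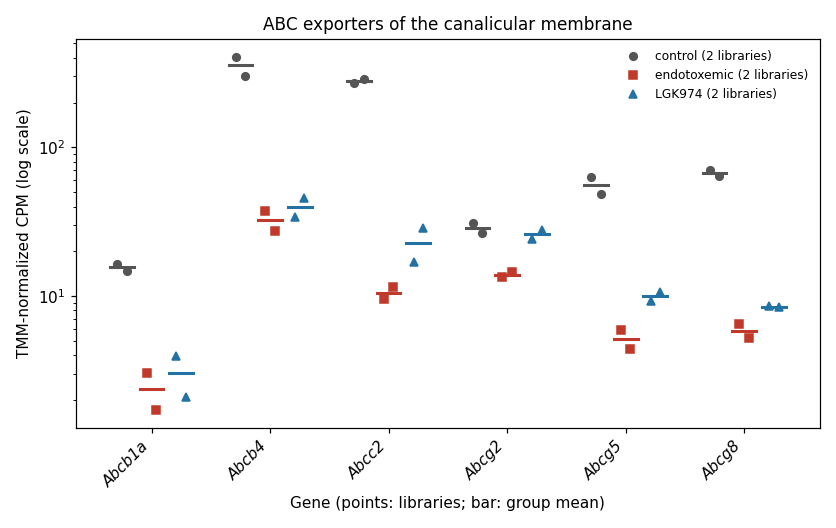
TMM-normalized CPM (log scale) of 6 exporters of the canalicular membrane in each library; points are libraries and bars group means. Endotoxemic libraries lie below the control libraries for each gene, by the most for *Abcc2* (272 and 286 CPM against 9.6 and 11.5 CPM), and *Abcg2* is the gene whose LGK974 libraries reach the control libraries.

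Of 8 tested basolateral transporters, 3 were higher (37.5%) and 1 was lower (12.5%) in the endotoxemic group, beside 20.4% and 23% of all rows, and the median log2 fold change was −0.19. The difference between this role and the canalicular one was not tested. *Abca1* (chromosome 4, 53030789 to 53159988), which loads cholesterol onto apolipoprotein A-I, had 59.6 and 91.5 CPM in control, 296 and 356 CPM in endotoxemic, and 272 and 154 CPM in LGK974 libraries. Its rise of 4.31-fold had an adjusted p of 0.00071. *Abcc5*, a cyclic nucleotide exporter, had 1.95 and 1.76 CPM in control, 4.58 and 6.29 CPM in endotoxemic, and 4.08 and 4.74 CPM in LGK974 libraries. *Abcc1*, an exporter of glutathione conjugates and leukotrienes, had 1.49 and 2.03 CPM, 6.11 and 4.26 CPM, and 1.66 and 3.59 CPM. Both rose by 1.55 on the log2 scale, with SEs of 0.42 and 0.53 and adjusted p-values of 0.0152 and 0.0403. The call of *Abcc1* was lost when any control or endotoxemic library was left out (adjusted p = 0.0835 to 0.199), and that of *Abcc5* without endotoxemic library 2 (0.118), control library 1 (0.063) or control library 2 (0.0799). *Abcc6*, which releases ATP from hepatocytes and is needed to prevent ectopic calcification, was the gene that fell, from 29.8 and 31.6 CPM in control to 3.06 and 5.33 CPM in endotoxemic libraries, with 3.93 and 2.03 CPM in LGK974 libraries. *Abcc3*, the basolateral pump for bilirubin glucuronides, had 46.8 and 53.9 CPM in control, 42.8 and 49.2 CPM in endotoxemic, and 48.5 and 23.4 CPM in LGK974 libraries. Its log2 difference with LPS was −0.13 ± 0.31 (adjusted p = 0.762). *Abcc4*, *Abcc10* and *Abcg1* were not called in any comparison.

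The Abca family carries lipids, and 9 of its 16 genes were tested. Of these, 6 were lower (66.7%) and *Abca1* was higher (11.1%) in the endotoxemic group, beside 23% and 20.4% of all rows, with a median log2 fold change of −2.15. *Abca8b*, *Abca8a*, *Abca9*, *Abca6* and *Abca5* lie side by side on chromosome 11 from 109932206 to 110337723. *Abca8a*, a lipid and cholesterol transporter of hepatocytes, had 121 and 96.3 CPM in control, 8.84 and 6.93 CPM in endotoxemic, and 2.94 and 2.37 CPM in LGK974 libraries. *Abca6* had 56.2 and 60.7 CPM in control, 7.64 and 8.95 CPM in endotoxemic, and 52.6 and 25.9 CPM in LGK974 libraries. Both fell with LPS, 13.8-fold and 7.04-fold, and in the LGK974 group the first lay below and the second above the endotoxemic libraries. *Abca8b* had 8.63 and 8.17 CPM in control, 1.96 and 1.81 CPM in endotoxemic, and 0.226 and 1.62 CPM in LGK974 libraries. Its fall of −2.15 ± 0.64 was not called when any control or endotoxemic library was left out (adjusted p = 0.0861 to 0.126). *Abca9* had 12 and 27 counts in control, 0 in each endotoxemic library, and 3 and 0 in LGK974 libraries. Against a floor of 3 counts over the group it was at least 9.06-fold lower in the endotoxemic group, and this call, too, was lost when any of those libraries was left out (adjusted p = 0.0549 to 0.0967). *Abca5* had between 0.755 and 3.86 CPM and was not called. *Abca2*, a lysosomal sterol transporter, had 54.5 and 35.9 CPM in control, 7.2 and 4.9 CPM in endotoxemic, and 8.15 and 8.05 CPM in LGK974 libraries. *Abca3*, known for loading surfactant lipids in the lung, had 31.6 and 31.4 CPM, 6.77 and 9.06 CPM, and 6.57 and 6.7 CPM. Both were lower with LPS, 7.45-fold and 3.98-fold.

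Of the 4 tested genes of the peroxisomal family, 2 were lower with LPS (50%, beside 23% of all rows), with a median log2 fold change of −2.68. *Abcd2* (chromosome 15, 91145871 to 91192007), which carries very long and polyunsaturated fatty acyl groups, had 382 and 636 counts in control, 1 and 6 in endotoxemic, and 6 and 18 in LGK974 libraries. Its log2 fold change with LPS was −6.64 ± 0.57 (adjusted p = 2.85e-05). It was −5.83 without endotoxemic library 1, and without library 2 a single count is left in that group. *Abcd3* (chromosome 3, 121758904 to 121815302), which carries branched-chain and dicarboxylic acids and bile acid precursors, had 489 and 459 CPM in control, 74.3 and 73.3 CPM in endotoxemic, and 145 and 115 CPM in LGK974 libraries. It was 6.42-fold lower with LPS. *Abcd4*, a lysosomal cobalamin transporter of the same family, was not called in any comparison.

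The transporters of mitochondria and lysosomes, 5 in number, gave 3 lower calls with LPS (60%, beside 23% of all rows) and a median of −1.31. *Abcb6*, a porphyrin transporter, had 33.8 and 39.2 CPM in control, 6.44 and 6.72 CPM in endotoxemic, and 6.87 and 9.88 CPM in LGK974 libraries. *Abcb10*, which takes part in heme synthesis and biliverdin export, had 26.1 and 24.1 CPM, 10.5 and 9.81 CPM, and 14 and 19.5 CPM. These genes were 5.55-fold and 2.47-fold lower with LPS. *Abcb8*, with a log2 fold change of −0.86 ± 0.30, passed narrowly (adjusted p = 0.0431) and was lost with upper-quartile factors (0.0541), with DESeq2 (0.0524) or when any control or endotoxemic library was left out (0.079 to 0.253). Of the 4 soluble ABC proteins of translation, 1 was higher with LPS (25%, beside 20.4% of all rows). It was *Abce1*, which recycles ribosomes and had 32.5 and 36.2 CPM in control, 52.4 and 65.6 CPM in endotoxemic, and 52.8 and 54 CPM in LGK974 libraries. It rose by 0.78 ± 0.20 on the log2 scale with LPS (adjusted p = 0.0127), a call lost without endotoxemic library 2 (0.123), control library 1 (0.111) or control library 2 (0.0602). *Abcf1*, *Abcf2* and *Abcf3* gave 0.34 ± 0.20, 0.61 ± 0.26 and 0.82 ± 0.32 without passing the threshold.

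Of 5 genes of the Slc22a cluster on chromosome 19, 4 were lower with LPS, beside 23% of all rows, and *Slc22a26* and *Slc22a27* were lower again in the LGK974 group. They encode organic anion carriers of rodents, several of them expressed in liver and kidney. *Slc22a26* (7780094 to 7802667) had 19.9 and 15.2 CPM in control, 6.66 and 9.91 CPM in endotoxemic, and 0.377 and 0.135 CPM in LGK974 libraries. *Slc22a27* (7864388 to 7966517) had 21.8 and 24.1 CPM, 4.69 and 5.12 CPM, and 0.0755 and 0.541 CPM. For both genes the groups did not overlap, and at least 1 LGK974 library was at or below the floor of 3 counts. *Slc22a30* (8335371 to 8405111) had 20.9 and 22.4 CPM, 5.02 and 3.41 CPM, and 3.02 and 1.02 CPM. *Slc22a29* had 54 and 86 counts in control, 2 and 3 in endotoxemic, and 1 and 0 in LGK974 libraries. It was lower with LPS by −4.25 ± 0.73 (adjusted p = 0.0015), and its ratio of control to LGK974 was 150, with a 95% counting interval of 26.5 to 5970. *Slc22a28*, whose promoter window nearly equals that of *Slc22a30*, had 11 and 37 counts in control, 7 and 1 in endotoxemic, and 14 and 5 in LGK974 libraries, and was not called. With LPS, the fall was −1.08 ± 0.35 for *Slc22a26*, −2.22 ± 0.39 for *Slc22a27* and −2.36 ± 0.44 for *Slc22a30*. The call of *Slc22a26* in this comparison was lost when any control or endotoxemic library was left out (adjusted p = 0.0629 to 0.243). On chromosome 11, *Slc22a4*, the ergothioneine carrier, had 16 and 15 counts in control, 0 and 2 in endotoxemic, and 2 and 2 in LGK974 libraries. Its ratio of control to endotoxemic was 10.8, with a 95% counting interval of 2.75 to 93.1, and its call was lost with DESeq2 (adjusted p = 0.0619), without a filter on low counts (0.0767) or when any control or endotoxemic library was left out (0.071 to 0.255).

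The LGK974 group differed from the endotoxemic group in 9 of the 59 genes, of which 4 were higher and 5 were lower. These are 6.78% and 8.47% of the genes tested, while over all rows tested 2.8% were higher and 2.82% were lower. The median log2 fold change was 0.05 over the 59 genes and 0.03 over all rows. At an unadjusted p below 0.05 there were 11 higher and 6 lower genes, against 11.9% and 11% of all rows. The groups did not overlap for 34 of the 59 genes and for 52.5% of all rows. The higher genes were *Abca6*, *Abcc2*, *Abcg2* and *Abcd3*, at 4.72-fold, 2.16-fold, 1.87-fold and 1.76-fold. Their adjusted p-values were 0.00931, 0.048, 0.0497 and 0.0443. The lower genes were *Slc22a26*, *Slc22a27*, *Slco1a4*, *Abca8a* and *Slco3a1*, at 31.8-fold, 14.9-fold, 4.65-fold, 2.97-fold and 2.1-fold. Their adjusted p-values were 0.00133, 0.00676, 0.00492, 0.0149 and 0.0314. Without endotoxemic library 1 or 2 edgeR called 0 genes higher (7 and 6 at an unadjusted p below 0.05, and 6 by DESeq2 on all libraries), and without control library 1 or 2 it called 1 each. It called 8 higher and 9 lower genes without LGK974 library 1, and 3 and 1 lower genes without endotoxemic library 1 and 2, respectively. *Slc22a26* was called in every alternative that tested it. The log2 fold change of *Slc22a27* was −3.90, and −3.15 without LGK974 library 1, while its size without LGK974 library 2 rests on 1 count and that of *Slc22a26* without LGK974 library 1 on 2 counts. That of *Abca6* was 2.24, and 1.64 without LGK974 library 1. The calls of *Slc22a27* and *Slco1a4* were lost without endotoxemic library 2 (adjusted p = 0.0642 and 0.0627). Without endotoxemic library 1 or 2, respectively, the adjusted p was 0.108 and 0.105 for *Abca6*, 0.132 and 0.0816 for *Abca8a*, 0.299 and 0.223 for *Abcc2*, 0.273 and 0.275 for *Abcd3*, and 0.293 and 0.243 for *Abcg2*. The calls of *Abcc2*, *Abcd3* and *Abcg2* were also lost without control library 1 (0.109, 0.115 and 0.113) or control library 2 (0.107, 0.113 and 0.109), and those of *Abcc2* and *Abcg2* without LGK974 library 2 (0.0626 and 0.0624). With only the compared groups in the fit, the adjusted p was 0.125 for *Abcc2*, 0.0986 for *Abcd3*, 0.106 for *Abcg2*, 0.0803 for *Abca8a* and 0.0537 for *Slco3a1*. The call of *Abcg2* was further lost with RLE size factors (0.0538) and with out-of-order rows left out (0.0507).

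**Figure D4:**
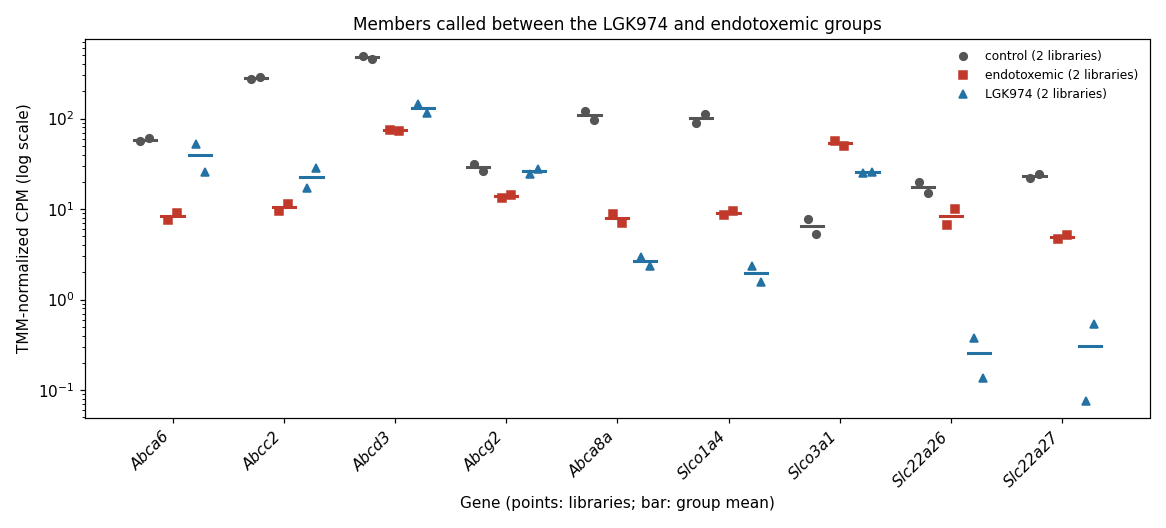
TMM-normalized CPM (log scale) of the 9 genes called between the LGK974 and endotoxemic groups, in each library; points are libraries and bars group means. For the 4 genes on the left the LGK974 libraries lie above the endotoxemic ones, for the 5 on the right below them, and *Slc22a26* and *Slc22a27* fall under 1 CPM in the LGK974 group.

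Of these 9 genes, *Slco1a4* is on a list of genes higher in females, whose summed CPM was 937 and 1040 in control, 98.3 and 96.5 in endotoxemic, and 4.83 and 4.67 in LGK974 libraries. *Slco1a1*, which was not called, is on a list of genes higher in males, whose summed CPM was 1700 and 1850, 1100 and 1180, and 8490 and 3280. Most of this sum was *Mup7*, at 1500 and 1620, 1020 and 1070, and 7680 and 2850 CPM. The lists are short, and whether called genes on neither list, such as *Slc22a26* and *Slc22a27*, differ between the sexes was not tested. Of the 9 genes of the female list 7 were lower in the LGK974 than in the endotoxemic group, and of the 6 genes of the male list 3 were higher, beside 2.82% lower and 2.8% higher of all rows tested. With LPS, 8 of the 9 genes of the female list were lower, and of the male list 3 were lower and 1 was higher, beside 23% lower and 20.4% higher of all rows tested. *Xist* was not called between these groups and *Ddx3y* was at 0 in both. In comparisons with the LGK974 group, the lists and the sex-linked genes differ together. Compared with the control group, the LGK974 group had 4 higher and 27 lower genes of the 59. These are 6.78% and 45.8%, while over all rows tested 16.4% were higher and 17.7% were lower. The median log2 fold change was −1.64 over the 59 genes and 0.02 over all rows, and the groups did not overlap for 47 of the 59 genes and 68.1% of all rows. The count of higher genes was 1 without control library 1 and 2 without control library 2 or either endotoxemic library. This comparison shares its control libraries with the comparison of endotoxemic and control mice. The higher genes were *Slco3a1*, *Abca1*, *Abcc5* and *Abce1*, with log2 fold changes of 1.98 ± 0.25, 1.49 ± 0.31, 1.25 ± 0.41 and 0.64 ± 0.20. The call of *Slco3a1* was made in every alternative, that of *Abca1* was lost without control library 1 (adjusted p = 0.0694), and those of *Abcc5* and *Abce1* were lost without either control library (0.136 and 0.169, and 0.221 and 0.123) or either endotoxemic library (0.0686 and 0.0815, and 0.0529 and 0.0635). That of *Abcc5* was also lost with only the compared groups in the fit (0.0807) or without LGK974 library 2 (0.0842). Among the genes lower than in control were *Slco1b2* at −3.92 ± 0.35 (−4.59 without LGK974 library 2), *Abcc2* at −3.61 ± 0.28, *Abcb4* at −3.15 ± 0.27, *Abcg8* at −2.98 ± 0.22 and *Abcd3* at −1.86 ± 0.20. *Abca6* and *Abcg2* were among the genes not called in this comparison, at −0.58 ± 0.31 and −0.15 ± 0.22.

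Of 20 nuclear receptors and liver factors that control transporter genes, 10 were lower (50%) and 2 were higher (10%) in the endotoxemic group, beside 23% and 20.4% of all rows, with a median of −0.66. The largest falls were those of *Nr0b2*, the corepressor SHP, from 34 and 39.9 CPM to 0 and 0.213 CPM, and of *Nr1i3*, the xenobiotic receptor CAR, from 46.7 and 54.4 CPM to 1.2 and 0.959 CPM. *Srebf2*, a driver of cholesterol synthesis, rose by 0.89 ± 0.26, and the other rise stood on the row of *Cebpb*, 1 of 3 regulators on out-of-order rows. In the LGK974 group, *Ppara*, the fatty acid receptor, had 61.4 and 132 CPM against 12.9 and 16 CPM in the endotoxemic group and was the regulator that was higher (2.74 ± 0.35, adjusted p = 0.00514), while *Cebpa* was lower (−0.83 ± 0.20, adjusted p = 0.0446). Of 21 other hepatic transporters and their partners 16 were tested. With LPS, 6 were lower (37.5%) and 5 higher (31.2%), beside 23% and 20.4% of all rows. The glucose carrier *Slc2a2* fell by 6.40 and the nucleoside carrier *Slc29a1* by 4.47 on the log2 scale, while the peptide transporter *Tap1* rose by 3.67 and the monocarboxylate carrier *Slc16a1* by 3.31. Markers of other cell types differed with LPS as well. Of the tested markers, 4 of 6 of stellate cells, 3 of 6 of sinusoidal endothelial cells and 4 of 8 of Kupffer cells were lower, and 1 in each list was higher. Over all rows tested, 23% were lower and 20.4% were higher. Of the lower Kupffer cell markers, *Cd5l* and *Csf1r* stand on out-of-order rows. The summed CPM of the markers in order was higher with LPS, at 431 and 440 in control and 571 and 527 in endotoxemic libraries for stellate cells, 231 and 249 against 406 and 403 for endothelial cells, and 105 and 107 against 149 and 135 for Kupffer cells. Each rise came from the marker called higher, which outweighed the falls. It was *Dcn* for stellate cells, at 339 and 358 against 549 and 505 CPM. For endothelial cells it was *Lyve1* (49.5 and 35.7 against 360 and 336 CPM), and for Kupffer cells *Marco* (6.87 and 6.27 against 96.6 and 74.5 CPM). The summed CPM of the monocyte markers on rows in order was 11.7 and 12.7 in control, 191 and 160 in endotoxemic, and 140 and 126 in LGK974 libraries, and that of the neutrophil markers was 1.76 and 1.9, 16 and 18.7, and 11.9 and 11.2. *Plac8* made up most of the monocyte sum, with 180 and 138 CPM in endotoxemic libraries. Left out, on out-of-order rows, were the monocyte markers *Ccr2* and *Chil3* and the neutrophil markers *S100a8* and *S100a9*. With LPS, *S100a9* was higher and *Ccr2*, *Chil3* and *S100a8* were not called. *Ccr2* and *S100a8* were lower in the LGK974 than in the control group. The part of these cell types in the changes of the transporters was not tested.

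The remaining 31 genes had too few counts to be tested. Of these, 16 had 0 counts in all 6 distinct libraries, among them *Slc22a6* and *Slc22a8*, the organic anion carriers of the kidney, and *Slc22a2*, the organic cation carrier of the kidney. The other 15 had at least 1 count, and the highest count was 10. A count of 0 in a library allows up to 3 counts, or between 0.197 and 0.328 CPM. Of the 59 genes tested, 23 were called in no comparison.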

How the data were processed

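Liver RNA was sequenced with the Lexogen QuantSeq 3′-end kit, and the authors deposited raw read counts for 23282 rows in 8 libraries. The submitters' processing notes name Bowtie2, edgeR and mm10 without versions. The counting and its strand are not given in the sources used here. The genes and lists described here were chosen with earlier results of these data known. Rows were filtered with filterByExpr by group in edgeR 4.0.16 (R 4.3.3), which kept 12701, and scaled by TMM. A single quasi-likelihood model with group as its factor was fitted to the 6 distinct libraries, where the common biological coefficient of variation was 0.239, and p-values were Benjamini-Hochberg adjusted over all rows tested at 0.05. SEs were derived from the F statistics. By rule, named genes had a mean of at least 5 CPM in a group or a call. Members named below that level without a call, and the markers named singly, were chosen after their values were seen. Values in every library are given for called genes with a log2 fold change of at least 1. The model was checked on simulated data. Row order was compared with RefSeq positions on GRCm38.p6. The replicate numbers in the labels do not state a pairing, so no block was used. Alternatives were other scalings, DESeq2 1.42.0, other filters, the compared groups alone, identical libraries kept separate, a replicate block, out-of-order rows left out or reassigned, and each library left out. Values of 3 of the genes are not reported here, and counts and medians over lists include them.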

Additional observations from a re-analysis of the deposited data

How the results depend on the processing

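No called change reversed its direction under any alternative tried. Between the endotoxemic and control groups, 5 genes were higher and 30 were lower, and the higher count became 8 when identical libraries were kept as separate samples. Between the LGK974 and endotoxemic groups, the 4 higher genes became 8 without a filter on low counts, 1 with only these groups in the fit and 11 with identical libraries kept separate, and the 5 lower genes became 3 with at least 10 counts in every library and 3 with only these groups in the fit. Leaving out 1 library at a time gave 2 to 7 higher and 24 to 33 lower genes in the endotoxemic group against control, 0 to 8 higher and 1 to 9 lower in the LGK974 group against the endotoxemic group, and 1 to 4 higher and 23 to 30 lower against control. The count of 0 came from edgeR without endotoxemic library 1 or 2, where 7 and 6 genes were higher at an unadjusted p below 0.05. The replicate block gave 6 higher and 29 lower genes in the endotoxemic group against control, 3 and 5 in the LGK974 group against the endotoxemic group, and 3 and 25 against control. With the block, the calls of *Abcg2* in LGK974 against endotoxemic (adjusted p = 0.0586), *Slc22a4* in endotoxemic against control (0.067) and *Abcc5* in LGK974 against control (0.0558) were among those lost. Deviations of same-numbered libraries from their group means had correlations of 0.14 for control and endotoxemic, −0.007 for control and LGK974, and 0.061 for endotoxemic and LGK974. With a single value for each pair of groups, these cannot decide whether same-numbered libraries share more than a number. DESeq2 gave 5 and 28, 6 and 5, and 4 and 26 calls in these comparisons. With 2 libraries per group, a lone library left in a group is assumed to vary like the others, and genes under 1 CPM rest on few counts.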
